A study of Rattus norvegicus with 4 samples.

Results

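The collagen genes outside type IV were examined in spatial gene expression data of rat kidney. Every feature whose symbol had the form Col, a number, a and a number was taken, except the type IV genes, which gave 39 features with 38 symbols of 32402 features in all (Col23a1 was listed for a pair of identifiers). The rule rests on symbols alone. The data came from 4 frozen sections, each 10 µm thick and each from the kidney of a Sprague-Dawley rat, laid on Visium slides, where spots with barcoded primers capture polyadenylated RNA from the tissue above them. The group PAN had been injected with puromycin aminonucleoside, a toxin of the podocytes of the glomerulus that is used to make a rat model of nephrotic disease, and was fed ad libitum. PAN_LS-FMD denotes a rat with that toxin and then 6 cycles of LS-FMD, a diet low in salts that mimics fasting. Both injected rats were sampled 6 weeks past the treatment period, when 5 months had gone by since the toxin. The group healthy had no treatment. The group healthy_LS-FMD was a healthy rat given 1 cycle of the diet and examined after 72 hours of refeeding. Neither sex nor age was stated in the labels. Each group held 1 section, so group, animal, slide and library cannot be told apart, no p-value was computed, and no difference below has a replicate check.

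Collagens are extracellular proteins built from alpha chains that wind into a rope-like helix. The fibril-forming types (I, II, III, V and XI) make the banded fibrils of connective tissue, the fibril-associated types (IX, XII, XVI, XX) sit on their surface, type VI forms beaded filaments around cells, type VIII forms networks in vessel walls, type VII anchors basement membranes, and type XVIII is a proteoglycan of basement membranes. In the kidney, fibroblasts and pericytes of the interstitium are known as the main makers of fibrillar collagen, and its build-up between the tubules is a hallmark of renal fibrosis. After synthesis the chains are hydroxylated, folded with the help of the chaperone Hsp47 (Serpinh1), trimmed outside the cell and crosslinked by lysyl oxidases.

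The spots with 500 or more UMIs (barcodes that count captured RNA molecules) numbered 2187 to 2866 per section. They held 24924170 UMIs for PAN, 58568499 for healthy, 34965670 for PAN_LS-FMD and 25330872 for healthy_LS-FMD. Levels are given as CPM, the UMIs of a gene per 1000000 UMIs of the section. Intervals are exact 95% Poisson intervals and cover counting error only, not the difference between animals. Barcodes mark slide positions, and 1650 to 2279 were shared by each pair of sections. The labelled tissue was borne out by its markers, since podocyte, proximal tubule and thick ascending limb genes were present in all 4 sections. In a section, fewer cells of a type and less RNA per cell cannot be told apart.

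The members together made up 2939 CPM (interval 2918 to 2960) in the PAN section, 558 in the healthy, 723 in the PAN_LS-FMD and 790 in healthy_LS-FMD. PAN thus stood above the other 3, which lay within 558 to 790 CPM. A few genes carried the sum: the top 3 members held 58.5% of the members' UMIs in PAN and 66.5% to 71.7% in the others. Col18a1 ranked first in all 4 sections. In the PAN section it was followed by Col3a1, Col1a1, Col12a1, Col6a2 and Col6a3, and the same 6 genes filled the first 6 ranks of the other sections in another order. Col12a1 held rank 2 in the healthy, PAN_LS-FMD and healthy_LS-FMD sections but rank 4 in PAN, where Col3a1 and Col1a1 stood at ranks 2 and 3. The intervals of Col1a1 and Col12a1 overlapped in PAN, so the order of that pair cannot be told beyond counting error. Col8a2, Col11a1 and Col1a2 also overlapped as neighbours there, as did Col8a1, Col6a1, Col5a3, Col7a1, Col5a2 and Col11a2 down the list. Col8a1 changed rank most among the genes with 200 or more UMIs, from 17 in healthy, 20 in PAN_LS-FMD and 22 in healthy_LS-FMD to 11 in PAN.

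**Figure D1:**
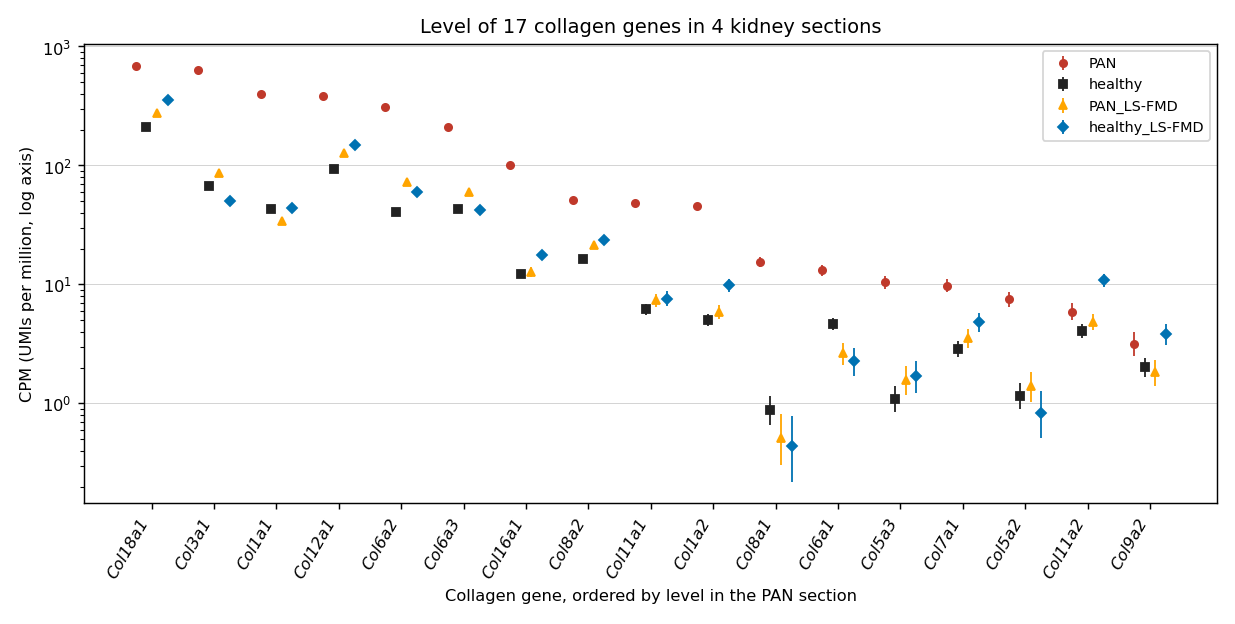
Level of the 17 collagen genes with 200 or more UMIs over the 4 sections, as CPM on a log axis, with genes ordered by their level in the PAN section. Points are sections (red circles PAN, black squares healthy, orange triangles PAN_LS-FMD, blue diamonds healthy_LS-FMD) and bars are 95% counting intervals; the PAN point is the highest for every gene except Col11a2 and Col9a2.

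Not all members could be measured. Of the 39, 17 had 200 or more UMIs over the 4 sections and are named below with their values, 6 had 20 or more but fewer, 10 had 1 to 19 and 6 had none in any section. The members with no UMI were Col10a1, Col15a1, Col19a1, Col25a1, Col28a1 and 1 of the 2 Col23a1 features, and a count of 0 is read here as a limit of 3 UMIs, which is 0.0512 CPM in the deepest section and 0.120 CPM in PAN. Levels between genes also depend on how well the annotation catches the 3′ end of each transcript, which was not tested. A low count does not show that a gene is silent: Col4a2, the partner chain of Col4a1, had 12 UMIs in the PAN section beside 31920 of Col4a1, and Col5a1 had 4 beside 188 of Col5a2.

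The first comparison asks how the kidney differed months after the toxin. Of 23 members with 20 or more UMIs over both sections, 19 were higher in the PAN than in the healthy section, none was lower and 4 were neither, where higher means a ratio of at least 1.5 with a counting interval that excludes 1. The background was high as well: 44.3% of all 13208 features measured were called higher and 9.85% lower. The median log2 ratio was 2.22 over the measured members and 0.51 over all features, so the whole scale was shifted towards PAN. Taken relative to that median, 17 of the 23 members were higher and none lower, against 22.7% and 21.6% of all features. Against the healthy_LS-FMD section in place of the healthy one, 17 of 22 measured members were higher in PAN, against 24.7% of all features, and 1 was lower, Col11a2, against 12.3%. Of the 17 named genes, 15 were called higher in PAN against healthy under all 16 alternative settings. The 2 that did not were Col9a2, which kept the call in 11 of 16, and Col11a2, which was neither.

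**Figure D2:**
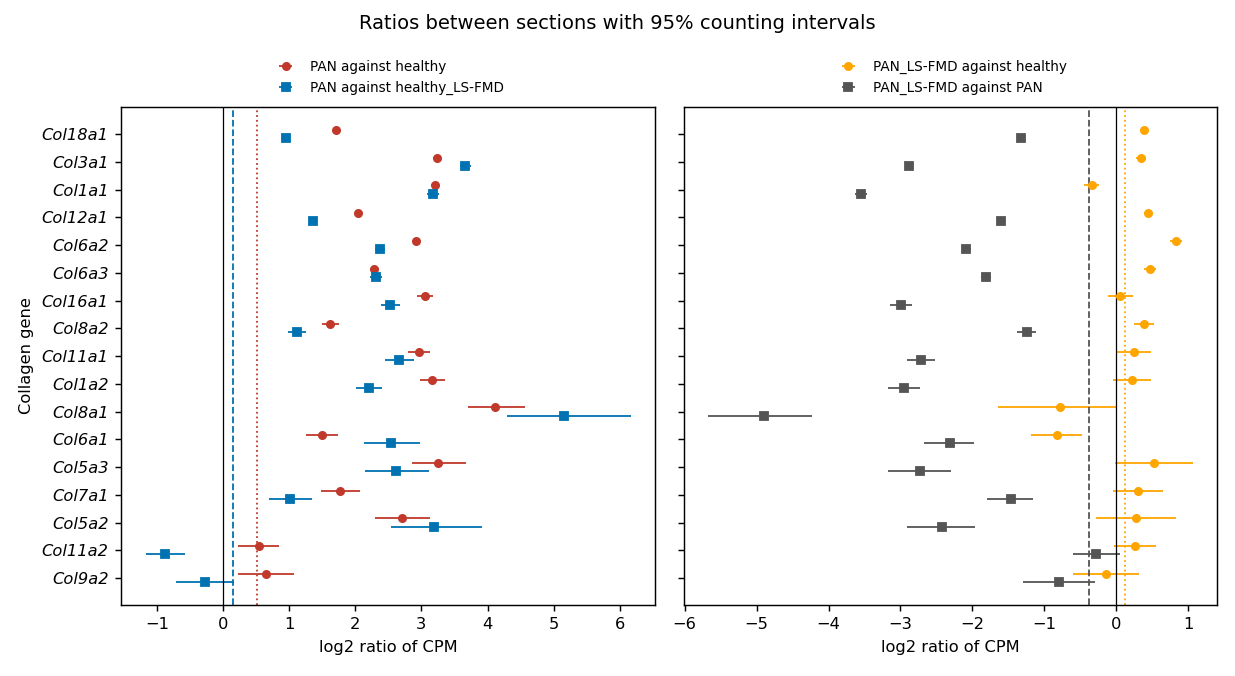
Ratios of CPM on the log2 scale for the 17 named collagen genes, with 95% counting intervals; left, PAN against healthy (red) and against healthy_LS-FMD (blue), right, PAN_LS-FMD against healthy (orange) and against PAN (grey). Dotted and dashed lines mark the median of all features in each comparison: 0.51 for PAN against healthy and -0.37 for PAN_LS-FMD against PAN, and most genes lie beyond them in both.

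Among the fibril-forming collagens, 6 of 7 measured members were higher in PAN. Col1a1, the main chain of type I collagen, stood at 396 CPM in PAN, 43.0 in healthy, 33.8 in PAN_LS-FMD and 43.9 in healthy_LS-FMD. The PAN section was the high one and the other 3 lay close together. The ratio of PAN to healthy was 9.23 (8.83 to 9.64). Col1a2, the other chain of type I, was likewise highest in PAN, with 45.3 CPM in PAN, 5.05 in healthy, 5.86 in PAN_LS-FMD and 9.83 in healthy_LS-FMD. It was 8.96-fold higher in PAN than in healthy (7.88 to 10.2). Col3a1, the single chain of type III collagen, stood at 632 CPM in PAN, 67.3 in healthy, 85.7 in PAN_LS-FMD and 49.8 in healthy_LS-FMD. Its ratio of PAN to healthy was 9.39 (9.06 to 9.72).

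Type V collagen is a minor component inside type I fibrils and takes part in setting their width. Col5a3 stood at 10.4 CPM in PAN, 1.09 in healthy, 1.57 in PAN_LS-FMD and 1.70 in healthy_LS-FMD, a ratio of PAN to healthy of 9.51 (7.21 to 12.7). Col5a2 stood at 7.54 CPM in PAN, 1.16 in healthy, 1.40 in PAN_LS-FMD and 0.829 in healthy_LS-FMD, a ratio of 6.497 (4.90 to 8.70). Both had PAN as the only high section, on 259 and 188 UMIs there. The chains of type XI, best known from cartilage, did not move alike. Col11a1 stood at 48.1 CPM in PAN, 6.18 in healthy, 7.35 in PAN_LS-FMD and 7.58 in healthy_LS-FMD, and was 7.78-fold higher in PAN than in healthy (6.91 to 8.78). Col11a2 stood at 5.90 CPM in PAN, 4.06 in healthy, 4.86 in PAN_LS-FMD and 10.8 in healthy_LS-FMD. Its ratio of PAN to healthy was 1.45 (1.17 to 1.79), below the fold used for a call, and its highest section was healthy_LS-FMD rather than PAN. Relative to the median of all features the Col11a2 log2 ratio was close to 0, at 0.02 with size factors by the median of ratios.

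The bases upstream of the transcript start listed by RefSeq are shown for Col1a2, a type I chain that was high in PAN. They are also shown for the type XI pair, which differed between the chains, and for Col8a1, which had the largest ratio. Each run is the 250 bases before the start in RefSeq's rat assembly GRCr8, 5′ to 3′ on the gene's strand, and capitals mark matches, on either strand, to the CCAAT box, the TATAAA form of the TATA box or the GGGCGG form of the GC box. Col1a2 lies at chr4:33518307-33518556 on the plus strand, Col11a1 at chr2:204508886-204509135 on the plus strand, Col11a2 at chr20:4817649-4817898 on the minus strand and Col8a1 at chr11:56246532-56246781 on the plus strand.
Col1a2: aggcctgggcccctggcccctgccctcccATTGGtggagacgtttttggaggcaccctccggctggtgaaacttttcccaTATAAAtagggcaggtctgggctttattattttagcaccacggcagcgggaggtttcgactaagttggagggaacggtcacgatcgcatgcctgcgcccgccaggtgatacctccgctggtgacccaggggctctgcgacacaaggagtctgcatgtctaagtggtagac
Col11a1: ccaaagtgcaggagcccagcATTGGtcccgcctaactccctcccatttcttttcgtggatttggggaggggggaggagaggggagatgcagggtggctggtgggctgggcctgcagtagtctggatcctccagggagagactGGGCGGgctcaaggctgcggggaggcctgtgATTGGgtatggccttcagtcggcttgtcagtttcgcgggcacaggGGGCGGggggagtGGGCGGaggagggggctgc
Col11a2: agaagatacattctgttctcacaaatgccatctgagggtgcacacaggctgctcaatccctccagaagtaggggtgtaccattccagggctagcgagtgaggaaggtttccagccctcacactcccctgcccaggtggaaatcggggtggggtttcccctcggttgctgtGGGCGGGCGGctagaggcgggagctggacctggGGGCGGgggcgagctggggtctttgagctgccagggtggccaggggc
Col8a1: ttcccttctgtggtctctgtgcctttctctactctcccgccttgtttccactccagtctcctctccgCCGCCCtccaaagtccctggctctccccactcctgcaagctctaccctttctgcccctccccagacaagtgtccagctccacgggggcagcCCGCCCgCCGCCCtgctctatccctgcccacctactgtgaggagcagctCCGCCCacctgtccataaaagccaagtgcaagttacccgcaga

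Distances here are counted from the start listed by RefSeq. Whether transcription begins at that base was not tested, so part of a window may lie within the transcript. In these windows Col1a2 held CCAAT in reverse orientation 221 bases before the listed start and TATAAA 170 bases before it. Col11a1 held the reverse CCAAT at 230 and 77 bases before the start, and GGGCGG at 108, 32 and 19 bases. Col11a2 held no CCAAT or TATAAA but GGGCGG at 80, 76 and 47 bases, where the first pair of matches overlap. Col8a1 held the reverse of GGGCGG at 183, 92, 85 and 43 bases. A promoter was listed for 29 of the 38 member symbols and for 13 of the 17 named genes. CCAAT was present in 3 of those 13, the third being Col5a3, and in 34.0% of all 33469 promoters of the same length. GGGCGG was present in 8 of 13 and in 30.5% of all, and TATAAA in 1 of 13 and in 12.9% of all. GGGCGG was found both upstream of Col11a2, which was not called higher in PAN, and upstream of 7 of the 12 genes that were. These matches describe the letters only.

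All 5 measured fibril-associated collagens were higher in PAN. Col12a1, whose product binds the surface of type I fibrils, stood at 383 CPM in PAN, 92.7 in healthy, 126 in PAN_LS-FMD and 149.5 in healthy_LS-FMD. It was 4.13-fold higher in PAN than in healthy (3.99 to 4.27) and, with a higher level in the other healthy rat, 2.56-fold higher than in healthy_LS-FMD. Col16a1, found at fibril surfaces and near cells, stood at 101 CPM in PAN, 12.2 in healthy, 12.7 in PAN_LS-FMD and 17.5 in healthy_LS-FMD, and the ratio of PAN to healthy was 8.26 (7.60 to 8.99). Col9a2, a type IX chain best known from cartilage, stood at 3.17 CPM in PAN, 2.01 in healthy, 1.83 in PAN_LS-FMD and 3.83 in healthy_LS-FMD. The ratio of 1.57 (1.17 to 2.11) passed the fold narrowly, on 79 and 118 UMIs, and its PAN level lay below that of healthy_LS-FMD. Col9a1 (17 and 13 UMIs) and Col20a1 (83 and 42 UMIs) were called higher at ratios of 3.07 and 4.64.

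Type VI collagen, a beaded filament assembled from different alpha chains, was high in PAN in its main chains. Col6a2 stood at 308 CPM in PAN, 40.8 in healthy, 72.7 in PAN_LS-FMD and 59.7 in healthy_LS-FMD, a ratio of PAN to healthy of 7.55 (7.21 to 7.91). Col6a3 stood at 210.2 CPM in PAN, 43.2 in healthy, 59.8 in PAN_LS-FMD and 42.4 in healthy_LS-FMD, a ratio of 4.87 (4.64 to 5.11). Col6a1, the chain that pairs with both, was far less counted. It stood at 13.1 CPM in PAN, 4.66 in healthy, 2.63 in PAN_LS-FMD and 2.25 in healthy_LS-FMD, a ratio of PAN to healthy of 2.81 (2.39 to 3.32). Here the healthy section lay above both diet sections, so the ratio of PAN to healthy_LS-FMD was 5.83. Col6a6 was neither, at 21 and 30 UMIs.

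The type VIII chains form networks beneath vascular endothelium and in mesenchymal tissue. Col8a1 had the largest ratio of PAN to healthy among the measured members. It stood at 15.4 CPM in PAN, 0.888 in healthy, 0.515 in PAN_LS-FMD and 0.434 in healthy_LS-FMD, that is 384 UMIs in PAN against 52, 18 and 11. The ratio of PAN to healthy was 17.4 (12.96 to 23.7). Col8a2 was higher by a smaller factor: it stood at 50.8 CPM in PAN, 16.5 in healthy, 21.4 in PAN_LS-FMD and 23.4 in healthy_LS-FMD, a ratio of 3.08 (2.83 to 3.35).

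Col7a1, the anchoring fibril chain, stood at 9.75 CPM in PAN, 2.85 in healthy, 3.52 in PAN_LS-FMD and 4.82 in healthy_LS-FMD, a ratio of PAN to healthy of 3.42 (2.80 to 4.19). Col18a1, whose protein carries the fragment known as endostatin at its end, was the most abundant member everywhere, with 690.5 CPM in PAN, 211 in healthy, 276 in PAN_LS-FMD and 357 in healthy_LS-FMD. Its ratio of PAN to healthy was 3.27 (3.19 to 3.35), lower than those of the type I and III genes, and 1.93 against healthy_LS-FMD. Of the transmembrane collagens Col13a1 was neither. Col17a1, a hemidesmosome collagen that is described here because its values were seen to differ, had 40 UMIs in PAN, 11 in healthy, 63 in PAN_LS-FMD and 33 in healthy_LS-FMD, and healthy was its low section. It was 8.54-fold higher in PAN than in healthy (4.30 to 18.5), and its interval against healthy_LS-FMD, 0.758 to 2.02, included 1. Col26a1 was also neither.

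The second comparison sets the injected rat with the diet against the injected rat without it. Of 23 measured members, none was higher in PAN_LS-FMD than in PAN and 18 were lower, where 9.67% of all 12850 measured features were called higher and 35.5% lower. The median log2 ratio was -1.81 over the members and -0.37 over all features, and relative to that median 16 members were lower, against 22.01% of all. Col8a1 was 29.9-fold lower (18.7 to 51.0), Col1a1 11.7-fold (11.03 to 12.5), Col16a1 7.95-fold (7.19 to 8.82), Col1a2 7.73-fold (6.65 to 9.01) and Col3a1 7.37-fold (7.09 to 7.66). This comparison shares its PAN section with the first. The type I and III genes thus stood in PAN_LS-FMD near their levels in the healthy section. Smaller factors were found for Col18a1 (2.50-fold, 2.44 to 2.57) and Col8a2 (2.37-fold, 2.16 to 2.59). The remaining named genes lay between, with Col5a3 at 6.61-fold, Col11a1 at 6.54-fold, Col5a2 at 5.38-fold, Col6a1 at 4.99-fold, Col6a2 at 4.24-fold, Col6a3 at 3.51-fold, Col12a1 at 3.03-fold and Col7a1 at 2.77-fold lower. Col9a2 was 1.73-fold lower (1.23 to 2.45) and kept the call under 10 of 16 alternative settings. Col11a2 was neither, at a ratio of 0.824 (0.657 to 1.04), as was Col17a1 at 1.12 (0.744 to 1.71).

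The third comparison gives what separated the injected and diet-treated rat from the untreated one. Of 23 measured members, 3 were higher in PAN_LS-FMD than in healthy, where 6.80% of all 12977 measured features were called higher, and 1 was lower, where 4.53% were. The members' median log2 ratio was 0.26 and that of all features 0.11. The higher ones were Col6a2 at 1.78-fold (1.68 to 1.88), Col9a1 at 2.32-fold on 18 and 13 UMIs, and Col17a1 at 9.59-fold (5.01 to 20.2). Col6a1 was the lower one, 1.77-fold (1.39 to 2.27). The split of 3 higher to 1 lower became 2 to 2 with size factors by the median of ratios. Col3a1 stood at a ratio of 1.27 (1.21 to 1.34), Col12a1 at 1.36 (1.31 to 1.42) and Col18a1 at 1.31 (1.27 to 1.34), all under the fold for a call. Col1a1 was slightly below healthy, at 0.788 (0.734 to 0.844). Against healthy_LS-FMD, Col3a1 was called higher at 1.72 (1.61 to 1.84), while Col11a2, Col9a2 and Col1a2 were called lower, where 5.95% and 18.0% of all features were called.

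The fourth comparison is the diet without the toxin, with 1 cycle against the 6 of the injected rat. Of 22 measured members, 8 were higher in healthy_LS-FMD than in healthy, where 27.1% of all 12967 measured features were called higher, and 2 were lower, where 5.27% were. The median log2 ratio was 0.51 over the members and 0.33 over all features, and relative to that median 4 members were higher and 5 lower, against 11.02% and 12.2% of all features. The split of 8 to 2 thus depends on the scaling. Col11a2 had the largest ratio of the named genes, at 2.66 (2.23 to 3.18), and kept its call under all 17 alternative settings. Col1a2 followed at 1.95 (1.64 to 2.31), Col9a2 at 1.90 (1.44 to 2.51) and Col18a1 at 1.69 (1.65 to 1.74). Col1a1, at 1.02 (0.952 to 1.098), and Col6a3, at 0.981 (0.913 to 1.05), differed little. Col6a1 was 2.07-fold lower (1.55 to 2.81) and kept the call under 16 of 17 settings, and Col8a1 was 2.04-fold lower on 11 UMIs against 52, a call kept under 7 of 17. The healthy_LS-FMD section held more medullary spots, 37.3% against 23.7% in healthy, and its medulla had the higher summed level of the members, 1150 against 617 CPM, while its cortex had 654 against 593. Within cortical spots 2 of 17 measured members were higher and 3 lower, against 20.3% and 5.27% of all features there, and within medullary spots 10 of 20 were higher, against 34.3%. The zones do not match fully between sections: the region led by Klk1c9 and Calb1, genes of the distal nephron, fell to the cortex in PAN and healthy but to the medulla in healthy_LS-FMD and to the blood-rich zone in PAN_LS-FMD, by its highest marker score. With that region given to the cortex in every section, the medulla held 32.4% of healthy_LS-FMD spots at 1223 CPM of the members and the cortex stood at 664 CPM. Within the cortex 2 of 18 measured members were then higher and 3 lower, against 22.1% and 5.62% of all features. The part of tissue composition in the difference was not tested.

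The chains of a collagen type are made to assemble together, so the counts of partner chains were set against each other within each section. Per 100 UMIs of Col1a1, Col1a2 had 11.4 (10.7 to 12.2) in PAN, 11.8 (10.4 to 13.3) in healthy, 17.3 (14.9 to 20.1) in PAN_LS-FMD and 22.4 (19.4 to 25.7) in healthy_LS-FMD. PAN and healthy thus overlapped although both genes stood about 9 times higher in PAN. Per 100 Col1a1, Col3a1, which is no partner chain, had 159 (155 to 163) in PAN and 157 (149 to 165) in healthy. These overlapped too. It had 253 (237 to 271) in PAN_LS-FMD and 113 (105 to 123) in healthy_LS-FMD. For both genes the diet sections thus lay outside the intervals of PAN and healthy. Col5a2 per 100 Col5a3 was 72.6 (59.8 to 87.9) in PAN and 106 (74.4 to 152) in healthy. These intervals overlapped as well, on only 68 and 64 UMIs in healthy. Between PAN and healthy the type VI, VIII and XI pairs did not keep their ratio. Col6a1 per 100 Col6a2 was 11.4 in healthy and 3.62 to 4.26 in the other 3 sections. Col6a3 per 100 Col6a2 was 68.2 in PAN, 106 in healthy, 82.3 in PAN_LS-FMD and 71.0 in healthy_LS-FMD. Col8a1 per 100 Col8a2 was 30.4 (27.01 to 34.1) in PAN, 5.39 (3.995 to 7.13) in healthy, 2.40 (1.41 to 3.82) in PAN_LS-FMD and 1.85 (0.921 to 3.34) in healthy_LS-FMD, so that the type VIII pair shifted towards Col8a1 in the PAN section. Col11a2 per 100 Col11a1 was 12.3 (10.3 to 14.6) in PAN, 65.7 in healthy, 66.1 in PAN_LS-FMD and 143 in healthy_LS-FMD, a shift towards Col11a1 in PAN.

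**Figure D3:**
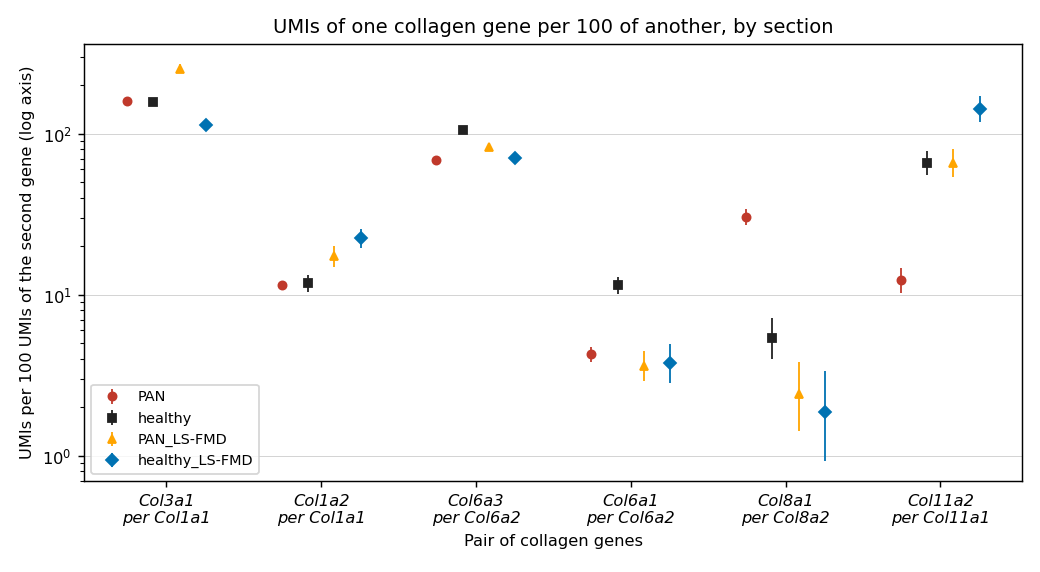
UMIs of one collagen gene per 100 UMIs of another in each section, on a log axis, for 6 pairs; points are sections and bars are 95% counting intervals. PAN and healthy coincide for Col1a2 and Col3a1 per Col1a1, while PAN lies above the other 3 sections for Col8a1 per Col8a2 (30.4) and below them for Col11a2 per Col11a1 (12.3).

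To see where in the kidney the genes lay, the spots of each section were clustered alone with all collagen genes left out, and regions are called by their number or leading genes. The PAN section gave 12 regions, the healthy 16, the PAN_LS-FMD 12 and the healthy_LS-FMD 15. For 11 of the 17 named genes the lowest PAN region lay above the highest healthy region, for 11 of 17 it lay above the highest PAN_LS-FMD region and for 9 of 17 above the highest healthy_LS-FMD region. For Col1a1 the lowest PAN region, led by the proximal straight tubule gene Slc7a13, had 238 CPM and the highest healthy region, led by Ccl21 and the smooth muscle gene Myh11, had 137. For Col3a1 these were 391 and 143 CPM, in the same 2 regions. For Col18a1 they were 528 and 451 CPM, where the highest healthy region was region 11. The exceptions in PAN against healthy were Col8a2, Col6a1, Col7a1, Col5a2, Col11a2 and Col9a2.

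Within the PAN section, 1 region stood out for the fibrillar genes. Region 2 (277 spots, 9.19% of the section's UMIs), led by Car3, the matricellular gene Postn, Ankrd1, Uchl1 and the fibroblast gene Lum, had the highest level of Col1a1 at 678 CPM, Col3a1 at 918 CPM, Col6a2 at 545 CPM, Col6a3 at 325 CPM, Col16a1 at 159 CPM, Col1a2 at 69.0 CPM, Col5a3 at 21.0 CPM and Col8a1 at 38.0 CPM. It held 22.7% of the UMIs of Col8a1 and 15.7% of those of Col1a1. Col1a1 in region 2 stood 1.71 times above the PAN section as a whole. For 12 of the 15 named genes with a UMI in every PAN region, the highest region exceeded the lowest by a smaller factor than PAN exceeded healthy. It did not for Col11a2 (7.25 against 1.45), Col7a1 (4.19 against 3.42) and Col6a1 (3.36 against 2.81). These factors rest on few counts and were given no interval. The highest and lowest regions held 11 and 5 UMIs of Col11a2, 52 and 29 of Col7a1 and 23 and 14 of Col6a1. Other members had other high regions. Col7a1 was highest in region 1, led by Igh-6 and Serpine2, at 23.4 CPM or 2.40 times its section level. Col18a1 at 1045 CPM, Col11a1 at 77.3 CPM and Col8a2 at 74.2 CPM were highest in region 12 (33 spots), where Col11a1 and Col8a2 rested on 25 and 24 UMIs. Col12a1 was highest at 561 CPM in region 10, led by Slc4a11 and Tmem207. In the healthy section Col18a1 (451 CPM), Col12a1 (155 CPM), Col8a2 (33.2 CPM) and Col11a1 (15.5 CPM) were all highest in region 11 (117 spots), at 1.67 to 2.51 times their section levels.

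**Figure D4:**
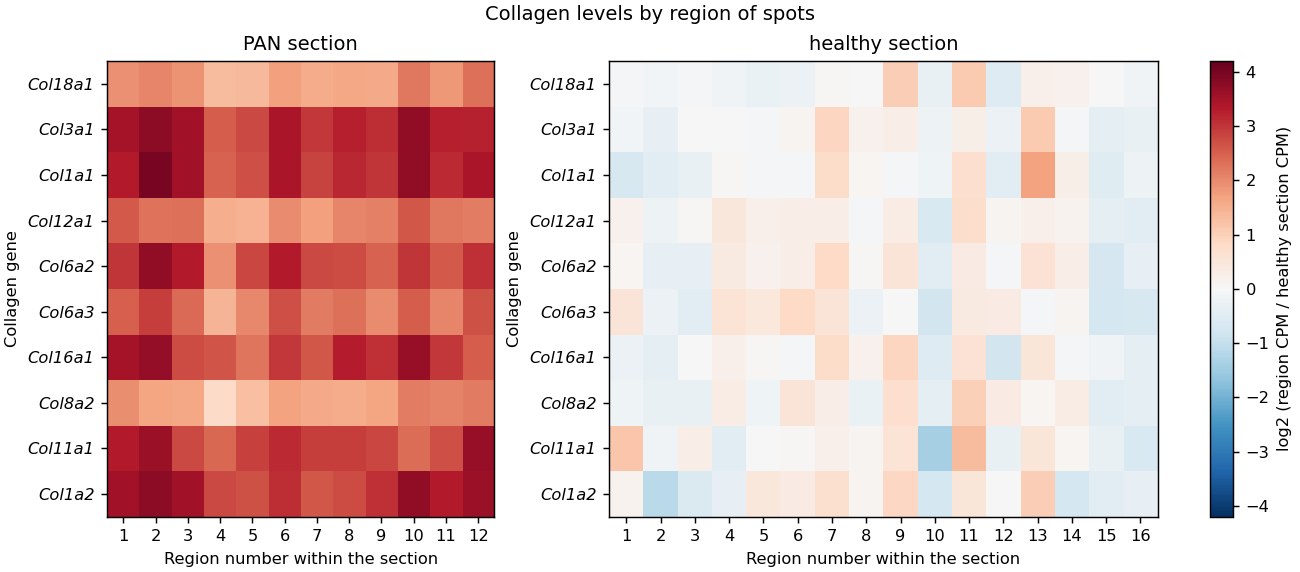
Level of the 10 collagen genes with 500 or more UMIs in PAN in each region of the PAN (left, 12 regions) and healthy (right, 16 regions) sections, as log2 of the region's CPM over the healthy section's CPM; region numbers of the sections do not correspond. Every PAN region is red for every gene, and in the healthy section the darker cells lie mostly in regions 9, 11 and 13.

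Grouping the regions into rough zones by marker genes gave the same picture in each zone. The members' summed level was 2894 CPM in PAN cortex against 593 in healthy cortex, a ratio of 4.88. It was 2709 against 488 CPM in the outer stripe (5.55) and 3367 against 617 CPM in the medulla (5.46). Col1a1 was 9.60-fold higher in cortex, 9.28-fold in the outer stripe and 10.9-fold in the medulla, and Col3a1 9.35-fold, 9.64-fold and 10.2-fold. Col8a1 differed more between zones: its ratio was 59.2 in cortex, on 205 UMIs against 6, but 12.9 in the outer stripe and 7.26 in the medulla. Col11a2 was neither in cortex, at a ratio of 0.967 (0.665 to 1.39), and was called higher in the outer stripe at 2.02 (1.34 to 3.03) and in the medulla at 1.76 (1.19 to 2.57). The differences between zones were not tested, as each zone is a single sum per section. The zones of PAN are also uncertain. Region 2 went to the cortex on a highest zone score of 0.124, and region 1 to the outer stripe on 0.272. The PAN medulla held 541 spots, but 1071 at Leiden resolution 0.5, so a zone may not hold like tissue in each section.

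At the level of spots, the main members were widespread in PAN. With every spot thinned to 4000 UMIs, a UMI of Col3a1 was found in 89.2% of PAN spots, 23.3% of healthy, 28.9% of PAN_LS-FMD and 19.3% of healthy_LS-FMD spots. Col1a1 was found in 76.2%, 16.1%, 12.7% and 16.4% and Col18a1 in 92.8%, 55.0%, 66.0% and 73.9%, in the same order of sections. Thinning left out 246 PAN, 4 healthy, 13 PAN_LS-FMD and 150 healthy_LS-FMD spots, and without thinning Col3a1 was found in 97.2%, 69.1%, 70.8% and 35.8% of spots. Col8a1 was sparse even in PAN, at 6.13% of thinned spots against 0.314% in healthy. A spot can hold several cells of different types, so these are shares of spots and not of cells.

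Over the 2724 PAN spots, the 45 pairs among the 10 members with 500 or more UMIs had a median Pearson r of 0.10, from 0.03 to 0.28, on log(1 + UMIs per 10000). The highest pair was Col1a1 with Col3a1 at 0.28, followed by values of 0.23 for Col3a1 with Col12a1, Col3a1 with Col6a2 and Col1a1 with Col6a2. Col11a1 was the least correlated, with a median of 0.05. In the 1144 cortical spots the median was 0.13 and Col1a1 with Col3a1 reached 0.39. The spots share a library and an animal, the counts per spot are few, and thinning lowered the median to 0.06, so no finding is drawn from these weak values. The medians in the other sections were 0.07, 0.05 and 0.04. By the summed members, the nearest of 4711 genes outside the family over PAN spots were Bgn at r = 0.47, Sparc at 0.46 and Fn1 at 0.45, which encode the matrix proteins biglycan, SPARC and fibronectin. LOC100364435 (0.43), Igfbp7 (0.43), Tmsb4x (0.42), S100a6 (0.41), Ifitm3 (0.40), Tagln (0.38) and Apoe (0.37) followed. In the healthy section the same genes had r from 0.21 to 0.48.

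**Figure D5:**
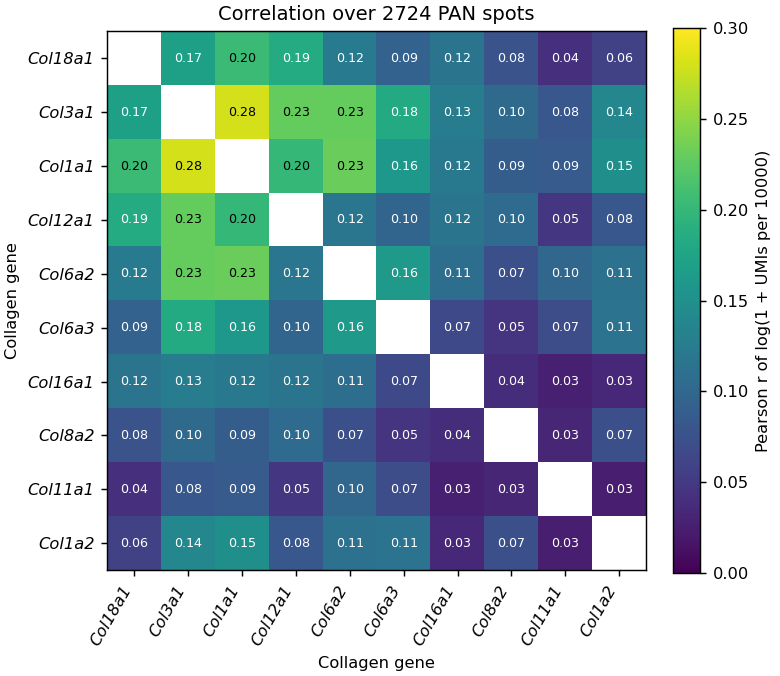
Pearson correlation of log(1 + UMIs per 10000) between 10 collagen genes over the 2724 spots of the PAN section; each cell is a pair and the colour scale runs from 0 to 0.30. The highest value is 0.28, for Col1a1 with Col3a1, and the cells of Col11a1, Col8a2 and Col16a1 reach at most 0.13.

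The enzymes and partners of collagen synthesis were taken from lists of known genes. Among the genes that trim procollagen and crosslink fibrils, 8 of 8 measured were higher in PAN than in healthy and 8 of 8 were lower in PAN_LS-FMD than in PAN, with median log2 ratios of 2.38 and -2.13 against 0.51 and -0.37 over all features. For these and the next lists the shares over all features were 44.3% higher and 35.5% lower. Lox, the lysyl oxidase that crosslinks fibrils, stood at 73.6 CPM in PAN, 8.88 in healthy, 8.44 in PAN_LS-FMD and 16.7 in healthy_LS-FMD. It was 8.29-fold higher in PAN than in healthy and 4.42-fold higher than in healthy_LS-FMD. Adamts2 and Adamts14, which remove the amino-terminal propeptide, were 7.15-fold and 6.53-fold higher. Among the genes of hydroxylation and glycosylation 9 of 13 were higher in PAN, none lower, and 8 of 13 were lower in PAN_LS-FMD than in PAN. P3h3 and P3h4, of the prolyl 3-hydroxylase family and its complexes, were 18.6-fold and 9.07-fold higher, and Plod2, a lysyl hydroxylase of the telopeptides, was 10.1-fold higher in PAN. Healthy was the lowest section for these, but only P3h3 was called higher in PAN_LS-FMD than in healthy. The ratios of P3h4 (1.44) and Plod2 (1.21) there were neither. P3h3 stood at 126 CPM in PAN, 6.74 in healthy, 34.8 in PAN_LS-FMD and 40.2 in healthy_LS-FMD. Plod2 stood at 144, 14.2, 17.2 and 52.0 CPM, in the same order of sections. Against healthy_LS-FMD the folds of PAN were 3.13 for P3h3, 4.70 for P3h4 and 2.77 for Plod2. Chaperones and export genes were higher in 5 of 9 measured, against 44.3% of all features, led by Fkbp10 (6.53-fold), Serpinh1 (3.45-fold) and Kdelr3 (3.22-fold), and 5 of 7 were lower in PAN_LS-FMD than in PAN. Of the collagen receptors and uptake genes 6 of 8 were higher in PAN and 6 of 8 were lower in PAN_LS-FMD than in PAN, and the first was led by the integrin chain Itga11 at 6.69-fold and the uptake receptor Mrc2 at 5.32-fold.

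Type IV collagen, the network of basement membranes, was set beside the members. Col4a1 stood at 1281 CPM in PAN, 264 in healthy, 297 in PAN_LS-FMD and 309.5 in healthy_LS-FMD, with a ratio of PAN to healthy of 4.85, inside the range of the members. Col4a4, a chain of the mature glomerular basement membrane, ran the other way, with 159 CPM in PAN, 213 in healthy, 276 in PAN_LS-FMD and 288 in healthy_LS-FMD. Its ratio of PAN to healthy was 0.746 (0.719 to 0.773), short of a call. Col4a4 was called lower in PAN than in healthy_LS-FMD, at 0.552, as 12.3% of all features were. It was called higher in PAN_LS-FMD than in PAN, at 1.74, as 9.67% were. Of 5 measured type IV genes, only Col4a1 was higher in PAN than in healthy, where 44.3% of all features were, and none was lower. Col4a5 at 1.47 and Col4a3 at 0.948 were neither.

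Marker lists of several cell types differed between PAN and healthy as well, where 44.3% of all features were called higher and 9.85% lower. The 8 fibroblast markers summed to 1539 CPM in PAN, 501 in healthy, 437 in PAN_LS-FMD and 527 in healthy_LS-FMD, with 7 of 8 higher in PAN than in healthy. The 9 smooth muscle and mesangial markers summed to 803, 209.7, 180.2 and 268 CPM, in the same order of sections, with 9 of 9 higher, and the 7 macrophage markers to 1219, 196, 319.7 and 207 CPM, with 7 of 7 higher. The 6 B and plasma cell markers summed to 2484 CPM in PAN and 62.1 in healthy, with 5 of 5 measured higher. Injured tubule markers summed to 20699 CPM in PAN and 726 to 1816 CPM in the others, with 6 of 8 higher. Lists ran the other way too: the markers of the proximal straight tubule summed to 1935 CPM in PAN and 7159 in healthy, with 4 of 5 lower, and the red blood cell markers to 925 and 8818 CPM, with 5 of 5 lower. All 8 fibroblast, 9 smooth muscle and 7 macrophage markers had UMIs in every section. Of 6 endothelial markers found in the files 2 were higher in PAN, below the share over all features, and 1 was lower. Cartilage and bone markers were low, at 2.77 CPM in PAN on 69 UMIs and 0.666 CPM in healthy on 39 UMIs. Only 2 of the 7 were measured, and 2 of 2 were higher in PAN. Acan, Matn3 and Sp7 were at 0 in PAN. The part of these cell types in the collagen differences was not tested. An alternative left out the regions whose smooth muscle and mesangial score was above 0.5. There 19 of 23 members were again higher in PAN than in healthy, against 44.8% of all features. That score is centred within each section, so the cut took out unlike tissue. It left PAN region 2 (0.448), the region highest in Col1a1. It took out healthy regions 11 (0.596) and 13 (1.29), where several members had their highest healthy levels. The count therefore does not bear on the part of these cell types.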

How the data were processed

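The authors deposited counts: whole-number UMI counts per gene and spot, with no normalisation. Per the file headers the healthy matrix was made with Space Ranger 2.0.1 and the other 3 with Space Ranger 1.2.1, so each comparison with the healthy section carries that difference of version. The genome build was not given in the sources used here. Of the deposited spots, 2 to 5 per section had under 500 UMIs and were left out. UMIs were summed over the spots of a section, and the ratio of CPM was given an exact conditional 95% interval of 2 Poisson counts. A gene was measured at 20 or more UMIs over both sections and called at a ratio of 1.5 whose interval excluded 1. With 1 section per group no test was run.

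Members and gene lists were chosen with earlier results of these data known, and they support nothing on their own. Named are members with 200 or more UMIs over the 4 sections, the 3 genes of each pathway list furthest from a ratio of 1 at 100 or more UMIs, and the 10 genes nearest to the summed members over PAN spots at 1000 or more UMIs. Col17a1 and the other members under 200 UMIs were named after their values were seen. Regions were clustered with scanpy 1.11.5 (2000 variable genes, 30 components, 15 neighbours, Leiden resolution 1) without collagen genes, and given to the cortex, outer stripe, medulla or blood-rich zone by marker scores. Doublets have no meaning for spots and were not called. TMM factors came from edgeR 4.0.16. The ratio script was tested on simulated data. Pcolce2, Pecam1 and Egf matched no feature of the files and were not used here, and some list symbols matched more than 1 feature. Promoters are RefSeq's (GRCr8). The leading genes of region 12 of the PAN section and region 11 of the healthy section are not reported here.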

Additional observations from a re-analysis of the deposited data

How the results depend on the processing

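Scaling, spot filters, depth, UMI minimum, fold, zone and reference section were varied 1 at a time. The count of members higher in PAN than in healthy ran from 17 to 21, of 18 to 32 measured. The share of all features called higher ran from 22.6% to 46.9%. The count lower in PAN_LS-FMD than in PAN ran from 16 to 19, of 17 to 33 measured. The share of all features called lower there ran from 21.8% to 39.4%. Members lower in PAN became 1 with healthy_LS-FMD as the reference, against 12.3% of all features. Members higher in PAN_LS-FMD than in PAN became 1 in cortical spots, Col11a2, with either zone rule, against 10.1% and 10.3%. The small counts of PAN_LS-FMD against healthy moved more: members lower became 2 with size factors, with TMM factors, without mitochondrial and haemoglobin UMIs or without the 5% of spots highest in members, 3 with each spot weighted equally or with healthy_LS-FMD as the reference, and 0 with a ratio of 2, in cortical or in medullary spots. Members higher became 1 at 100 or more UMIs, in medullary spots or with that reference. Over the settings of this comparison, 2.46% to 18.0% of all features were called lower and 2.55% to 10.7% higher. In healthy_LS-FMD against healthy, members higher became 3 with size factors, 4 with TMM factors and 2 with a ratio of 2. They became 2 in cortical spots and 3 in the outer stripe. The share of all features called higher fell as well, from 27.1% to 10.4%, 10.5%, 9.61%, 20.3% and 18.5% in that order. Members lower became 5 with size factors or TMM factors and 1 when thinned, at 100 or more UMIs, without the highest 5% of spots, in the outer stripe, in the medulla, or without regions high in smooth muscle genes, an alternative chosen after seeing the data. The share of all features called lower in those settings ran from 4.49% to 12.8%. The causes were not tested. Giving the Calb1-led region to the cortex was also chosen after seeing the data. In the cortex it left 1 member higher in PAN_LS-FMD than in PAN, against 10.3% of all features. It left 0 lower in PAN_LS-FMD than in healthy there, against 2.82%, and 2 higher in healthy_LS-FMD than in healthy, against 22.1%. In the medulla 0 were lower in healthy_LS-FMD than in healthy, against 9.21%. Among called log2 ratios those that changed sign were Col9a2 in PAN against healthy_LS-FMD (-0.27), Col6a1 in PAN_LS-FMD against healthy_LS-FMD (0.23) and Col9a2 in the outer stripe of healthy_LS-FMD against healthy (-0.064). Uncalled ratios changed sign more often: 12 of 15 in PAN_LS-FMD against healthy, 6 of 8 in healthy_LS-FMD against healthy, and Col11a2 in both comparisons with PAN. At Leiden resolution 0.5 the summed members' ratio of PAN to healthy was 4.90 in cortex, 4.81 in the outer stripe and 4.77 in the medulla. No paired analysis was possible because each group holds 1 section. Depth limits the members under 200 UMIs, whose intervals are wide.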

Other observations

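Members with 20 or more but fewer than 200 UMIs over the 4 sections gave less certain values. Col20a1 stood at 3.33 CPM in PAN, 0.717 in healthy, 0.744 in PAN_LS-FMD and 1.03 in healthy_LS-FMD. It ranked the sections as Col12a1 and Col16a1 did, but not as Col9a2 did. Col9a1 stood at 0.682, 0.222, 0.515 and 0.197 CPM in PAN, healthy, PAN_LS-FMD and healthy_LS-FMD. With the sections listed alike, Col13a1 stood at 0.963, 0.751, 0.829 and 0.474 CPM, and Col6a6 at 0.843, 0.512, 0.343 and 0.474 CPM. Col26a1 was the only measured member with its lowest level in PAN, at 0.281 CPM against 0.444, 0.372 and 0.474, on 7 to 26 UMIs. Of the members under 20 UMIs, the fibril-forming Col24a1 had 8 UMIs in PAN, 1 in healthy, 1 in PAN_LS-FMD and none in healthy_LS-FMD.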
